A study of Mus musculus with 39 samples.

Results

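The 12 CUT&Tag peak lists of DP cells were used to give every protein-coding promoter its set of histone marks. The promoter was taken as the 1 kb before and the first 100 bp after the annotated gene start in GRCm38, and it was given a mark when a listed peak overlapped it in 2 or more of the 3 libraries of that mark. The lists covered H3K4me1, H3K27ac, H3K27me3 and H3K9me3 with 3 replicates each, 12 of the 36 lists in the series, and 21911 promoters were scored. DP cells were the nEnd (naive extra-embryonic endoderm) cells positive for both OCT4-mCherry and PDGFRA-APC, sorted by FACS from an untreated mouse OCT4-mCherry reporter line kept in RACL medium with Activin A, the GSK3 inhibitor CHIR99021 and LIF. The other sorted populations of the same line and medium, Oct4+ (OCT4-mCherry only) and Pdgfra+ (PDGFRA only), supplied 12 lists each and were read only for the classes defined in DP cells. The study's methods call replicates biological unless stated otherwise, and the labels do not say whether these came from separate cultures or whether the line is 1 clone. P-values therefore measure the spread between these libraries of 1 line.

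Each of these marks has a known place at genes. H3K27ac is laid down by the acetyltransferases p300 and CBP at active promoters and enhancers, and H3K4me1 by MLL3 and MLL4 at enhancers and on the flanks of promoters. H3K27me3 is the product of EZH1 and EZH2 in Polycomb repressive complex 2, which silences developmental regulators and favours CpG islands, the CpG-dense promoters that escape DNA methylation. The same lysine cannot be acetylated and methylated at once on 1 histone tail. H3K9me3 marks heterochromatin, retroelements and the methylated allele of imprinted control regions, where it is set by SETDB1, SUV39H1 and SUV39H2.

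Promoters of the leading genes of 5 combinations, and of the 2 genes used for sorting, are printed as single examples. Each line gives the 250 bases upstream of the gene start, 5′ to 3′ on the strand of the gene, with every CpG in capitals. Mnt (H3K27ac) lies at chr11:74830670-74830919 on the plus strand, Sez6 (H3K27me3) at chr11:77930550-77930799 on the plus strand, and Tlx2 (H3K4me1 with H3K27me3) at chr6:83070294-83070543 on the minus strand. Gm10801 (H3K9me3) lies at chr2:98661987-98662236 and Il3ra (H3K27ac with H3K9me3) at chr14:14346025-14346274, both on the plus strand. Pou5f1 (H3K4me1) lies at chr17:35505768-35506017 and Pdgfra (H3K4me1 with H3K27ac) at chr5:75152042-75152291, both on the plus strand.
Mnt: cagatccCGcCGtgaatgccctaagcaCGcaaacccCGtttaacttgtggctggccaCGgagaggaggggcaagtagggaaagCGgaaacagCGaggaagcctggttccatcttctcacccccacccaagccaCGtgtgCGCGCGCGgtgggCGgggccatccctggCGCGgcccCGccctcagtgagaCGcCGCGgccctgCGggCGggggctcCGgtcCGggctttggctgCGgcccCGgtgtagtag
Sez6: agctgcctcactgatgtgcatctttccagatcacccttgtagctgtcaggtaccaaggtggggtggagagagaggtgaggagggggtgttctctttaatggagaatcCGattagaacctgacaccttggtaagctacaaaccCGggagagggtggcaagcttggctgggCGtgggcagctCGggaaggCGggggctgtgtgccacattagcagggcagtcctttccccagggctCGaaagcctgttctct
Tlx2: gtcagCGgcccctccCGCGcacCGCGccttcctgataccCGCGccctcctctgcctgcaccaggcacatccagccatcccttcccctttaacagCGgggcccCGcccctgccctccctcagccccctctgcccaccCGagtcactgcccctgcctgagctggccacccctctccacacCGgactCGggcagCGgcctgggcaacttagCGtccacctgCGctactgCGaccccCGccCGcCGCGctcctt
Gm10801: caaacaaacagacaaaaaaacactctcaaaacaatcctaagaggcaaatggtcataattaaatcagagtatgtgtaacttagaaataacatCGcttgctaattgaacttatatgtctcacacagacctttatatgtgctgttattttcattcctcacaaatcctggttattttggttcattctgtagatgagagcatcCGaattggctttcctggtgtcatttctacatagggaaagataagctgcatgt
Il3ra: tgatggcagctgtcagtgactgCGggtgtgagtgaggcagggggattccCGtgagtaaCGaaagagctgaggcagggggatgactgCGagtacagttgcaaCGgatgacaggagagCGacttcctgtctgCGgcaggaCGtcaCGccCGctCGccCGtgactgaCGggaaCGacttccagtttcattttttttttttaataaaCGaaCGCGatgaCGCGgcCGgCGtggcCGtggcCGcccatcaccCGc
Pou5f1: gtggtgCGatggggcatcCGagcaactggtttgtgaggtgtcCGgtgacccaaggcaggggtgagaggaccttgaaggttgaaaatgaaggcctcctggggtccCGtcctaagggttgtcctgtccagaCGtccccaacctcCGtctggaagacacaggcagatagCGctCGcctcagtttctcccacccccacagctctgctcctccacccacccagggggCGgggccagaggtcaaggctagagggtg
Pdgfra: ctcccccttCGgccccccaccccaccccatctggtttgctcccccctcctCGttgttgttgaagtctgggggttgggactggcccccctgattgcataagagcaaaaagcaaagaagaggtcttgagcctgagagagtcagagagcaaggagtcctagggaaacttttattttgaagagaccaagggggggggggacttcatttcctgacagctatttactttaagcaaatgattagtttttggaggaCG
These stretches held 25 CpG in Mnt, 24 in Il3ra, 20 in Tlx2, 9 in Pou5f1, 6 in Sez6, 3 in Pdgfra and 2 in Gm10801. The median over all promoters was 8, with 18 for H3K27ac, 12 for H3K27me3, 7 for H3K4me1 and 3 for H3K9me3 alone. It was 15 for H3K27ac with H3K9me3, 13 for H3K4me1 with H3K27ac and 12 for H3K4me1 with H3K27me3. Sez6, Pdgfra and Gm10801 thus held fewer CpG than the median of their combination, and Mnt, Il3ra, Tlx2 and Pou5f1 more.

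Libraries of a mark differed widely in the number of listed peaks, and sequencing depth was unknown because the lists hold no read totals. H3K4me1 libraries had 403, 3132 and 1526 promoters with a peak, H3K27ac libraries 7275, 2350 and 7638, H3K27me3 libraries 2654, 3877 and 3013, and H3K9me3 libraries 209, 413 and 205, in replicate order. H3K4me1 replicate 2 and H3K27ac replicate 2 stood apart from the others of their mark. The H3K27ac counts moved little without its replicate 2 (5736 promoters with H3K27ac alone became 5721), whereas without H3K4me1 replicate 2 the promoters with H3K4me1 alone went from 345 to 94 and those with H3K4me1 and H3K27ac from 670 to 152. Total signal is the fragment coverage summed over a peak and was not scaled to depth, so it is compared between genes within a library and not between libraries.

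H3K27ac was the most frequent promoter mark in DP cells, at 6641 promoters (30.3%), followed by H3K27me3 at 3189 (14.6%), H3K4me1 at 1188 (5.42%) and H3K9me3 at 200 (0.913%). Most marked promoters carried a single mark. H3K27ac alone was found at 5736 promoters (26.2%), H3K27me3 alone at 2847 (13.0%), H3K4me1 alone at 345 (1.57%) and H3K9me3 alone at 160 (0.730%). Among promoters with several marks, 670 (3.06%) carried H3K4me1 with H3K27ac, 161 (0.735%) H3K27ac with H3K27me3, 115 (0.525%) H3K4me1 with H3K27me3 and 51 (0.233%) these 3 marks together. H3K9me3 was joined by H3K27ac at 21 promoters (0.0958%) and by H3K27me3 at 12 (0.0548%). The rarest combinations were H3K4me1 with H3K27me3 and H3K9me3 at 3 promoters (0.0137%), H3K4me1 with H3K27ac and H3K9me3 at 2 (0.00913%), and H3K4me1 with H3K9me3 at 2 (0.00913%). No promoter carried H3K27ac with both H3K27me3 and H3K9me3, and 11786 (53.8%) had no mark in 2 or more libraries. Absence of a listed peak can also mean a level of the mark too low to be called.

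**Figure D1:**
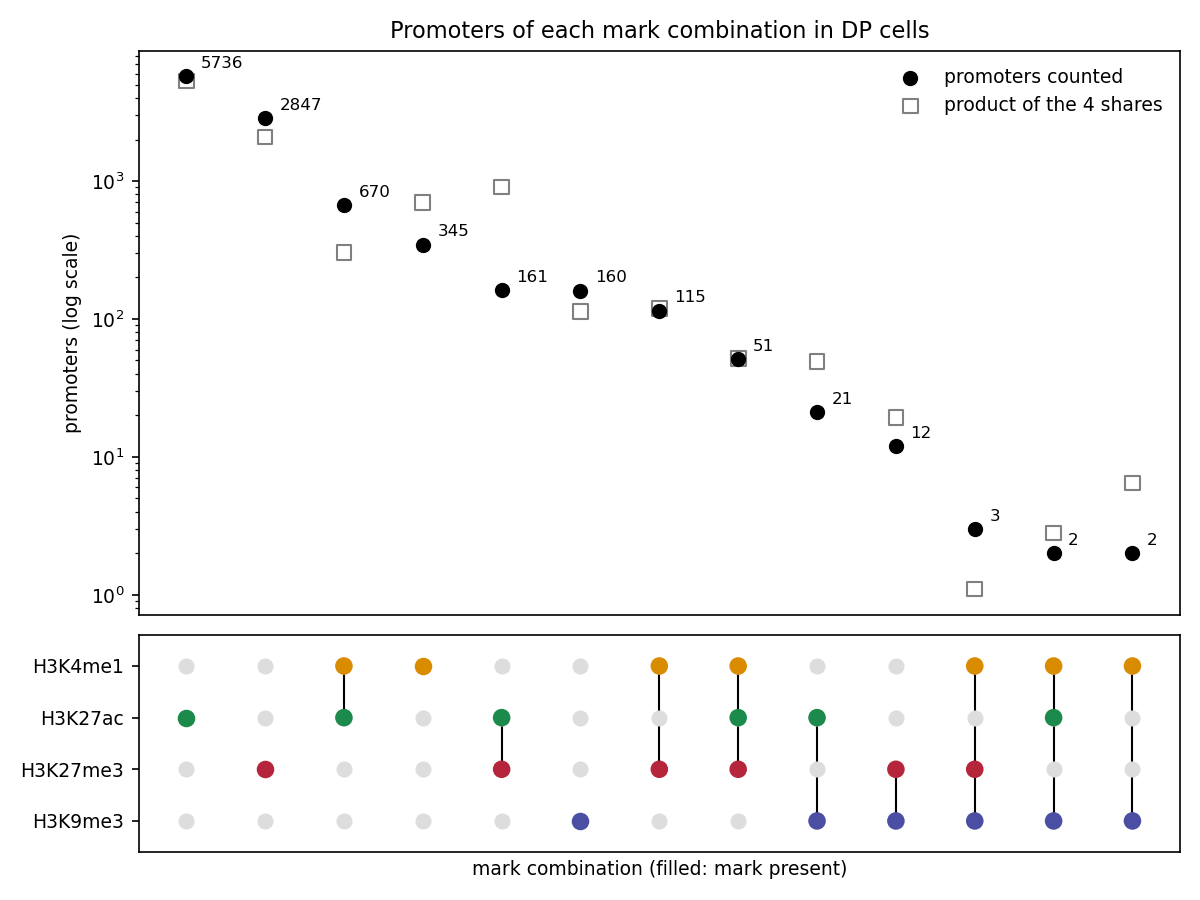
Number of promoters (vertical axis, log scale) for each mark combination seen in DP cells, with the marks of a combination shown as filled circles beneath it; black points are counted promoters and grey squares the number that the product of the 4 single-mark shares gives. H3K27ac with H3K27me3 lies furthest below its square among combinations of 20 or more promoters (161 counted), and H3K4me1 with H3K27ac lies above its square (670 counted).

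The marks were not spread over promoters independently of each other. H3K27ac and H3K27me3 met at 212 promoters, 0.219 times the 967 that the product of their shares gives, or 3.19% of H3K27ac and 6.65% of H3K27me3 promoters. In same-numbered libraries the ratio was 0.234, 0.130 and 0.311, below 1 in each. H3K4me1 and H3K27ac met at 723 promoters, 2.01 times the product, and the ratio was 1.92, 2.41 and 1.91 in same-numbered libraries. This was 60.9% of H3K4me1 promoters but 10.9% of H3K27ac promoters. H3K4me1 met H3K27me3 at 169 promoters against 173 from the product, a ratio of 0.977, with 0.819, 1.01 and 1.05 by replicate number. H3K9me3 shared 23 promoters with H3K27ac (0.379 times the product) and 15 with H3K27me3 (0.515 times). The ratio for H3K27ac and H3K9me3 went to 1.51 when every library was held to 3079 peaks, at which 50 promoters had H3K9me3. These ratios are descriptions and were not tested.

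H3K4me1 was read more often at promoters that carried H3K27ac than at those with the repressive marks. Of the promoters with an H3K27ac peak in a library, 11.0, 13.7 and 10.6% belonged to the 1188 H3K4me1 promoters (11.8 ± 1.66%, SD, n = 3). The share was 4.94, 5.16 and 5.28% in H3K27me3 libraries (5.12 ± 0.173%) and 1.91, 4.12 and 3.90% in H3K9me3 libraries (3.31 ± 1.21%). The libraries of the 3 marks did not overlap (exact omnibus permutation test over 280 partitions of 9 libraries, p = 0.00357, the smallest possible, adjusted p = 0.00649 over the 5 measures compared between marks). The largest difference between the means of 2 marks, 8.48 percentage points, was 2.27 without replicate 2, 3.27 without replicate 3 and 7.38 without replicate 1.

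CpG content separated the marks and the combinations. The CpG ratio, the observed number of CpG over the number that the C and G content gives, had a median of 0.617, 0.657 and 0.611 at promoters with a peak in the 3 H3K27ac libraries (0.628 ± 0.0251, SD, n = 3). It was 0.479, 0.456 and 0.474 for H3K27me3 (0.470 ± 0.0122), 0.376, 0.522 and 0.465 for H3K4me1 (0.454 ± 0.0731) and 0.275, 0.257 and 0.282 for H3K9me3 (0.271 ± 0.0130). The marks differed (exact omnibus permutation test over 15400 assignments of 12 libraries, p = 0.000519, adjusted p = 0.00260). H3K27ac libraries lay above all others and H3K9me3 libraries below all others, whereas H3K4me1 and H3K27me3 libraries overlapped. With 2 libraries per mark the adjusted p of this exact test was 0.0952 without replicate 1 and 0.143 without replicate 3.

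By combination, the median CpG ratio was 0.642 for H3K27ac alone, 0.603 for H3K27ac with H3K27me3, 0.565 for H3K27ac with H3K9me3, 0.497 for H3K4me1 with H3K27ac, 0.471 for H3K4me1 with H3K27me3, 0.466 for these 2 marks with H3K27ac, 0.459 for H3K27me3 alone, 0.339 for H3K4me1 alone, 0.229 for no mark and 0.221 for H3K9me3 alone, against 0.392 over all promoters. H3K27ac was present at 60.3% of the promoters with a CpG ratio of 0.543 or more, at 26.8% of those between 0.246 and 0.543 and at 3.87% of those below. H3K27me3 was present at 16.7, 19.2 and 7.82% of the same groups, and no mark at 23.7, 51.9 and 85.7%. The shortfall of H3K27ac with H3K27me3 was present in each group, with 0.176, 0.187 and 0.588 times the product of the shares within it. The excess of H3K4me1 with H3K27ac varied strongly with CpG ratio, at 1.23, 2.15 and 11.7 times the product in the same groups. It was thus small among the CpG-rich promoters, which held 303 of the 723 promoters with both marks.

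**Figure D2:**
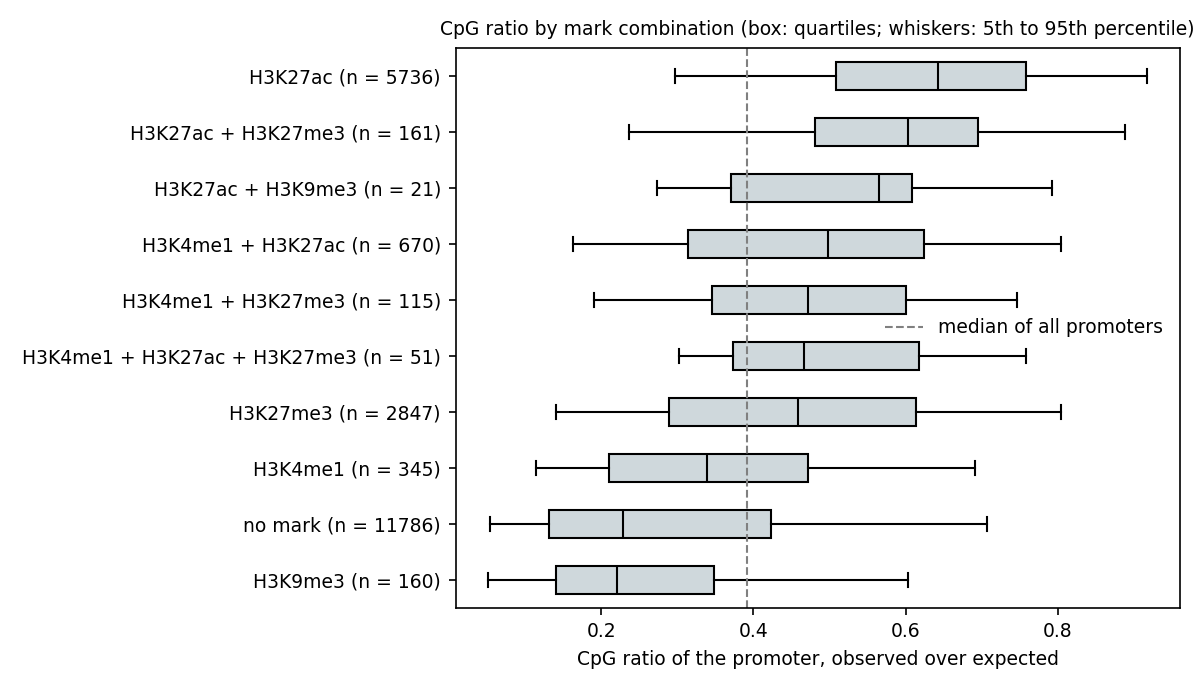
CpG ratio of the promoter (horizontal axis) for each mark combination with 20 or more promoters and for promoters with no mark; boxes are quartiles, whiskers run from the 5th to the 95th percentile of promoters, and the dashed line is the median of all promoters, 0.392. Medians run from 0.642 for H3K27ac alone to 0.221 for H3K9me3 alone.

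Other features of the DNA also followed the combinations. Another protein-coding gene started on the opposite strand within 1 kb upstream at 18.2% of promoters with H3K27ac alone, at 6.72% with H3K4me1 and H3K27ac, at 1.62% with H3K27me3 alone and at none of the 160 with H3K9me3 alone, against 6.76% of all. Of the 750 head-to-head pairs, 732 shared their combination and 556 carried H3K27ac at both starts. The windows of such a pair overlap and 1 peak can mark both, so this sharing follows largely from how the pairs were defined. The median repeat-masked share of the promoter was 24.4% for H3K9me3 alone and 19.0% for no mark, against 12.2% for H3K27ac alone and 12.3% for H3K27me3 alone. Genes with H3K27ac or H3K27me3 alone had median lengths of 24.0 and 24.7 kb, and genes with H3K4me1 alone 10.8 kb.

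Short sequences bound by known factors were searched on both strands of the 1100 bp promoters, as letters only. CCGGAAG, a core of ETS factor sites, was in 31.5% of promoters with H3K27ac alone, 8.57% with H3K27me3 alone and 15.99% of all promoters. CGCATGCG, a core of NRF1 sites, was in 6.12, 1.02 and 3.15% of the same groups, and TGACGTCA, the cyclic AMP response element, in 5.40, 2.25 and 3.09%. These 3 motifs were more frequent with H3K27ac alone and less frequent with H3K27me3 alone than in all promoters. Median GC contents of these 2 groups were 52.3 and 53.6%. Each of the 3 motifs contains a CpG, and the median CpG ratios of the groups were 0.642 and 0.459. TGCCGC, the core bound by ZFP57 when methylated, was in 38.1% of the 21 promoters with H3K27ac and H3K9me3, 37.0% of those with H3K27ac alone, 15.0% of those with H3K9me3 alone and 23.9% of all. A core without a CpG that is read by factors such as GATA4 and GATA6, AGATAAG, was in 15.4% of promoters with H3K4me1 alone, 9.95% with H3K27ac alone and 12.1% of all. The shares for promoters with no mark and with H3K9me3 alone lay between those for H3K4me1 alone and for all promoters. The higher share with H3K4me1 alone was thus partly shared by unmarked promoters, and binding by GATA factors was not tested. CACGTG, the E-box, ranged less, with 23.7% for H3K27ac alone, 19.0% for H3K27me3 alone and 17.7% of all. No motif is contained in another, and CpG content, which differed between these groups, was not tested as a part of the motif shares.

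The marks also differed in how their peaks sat on the gene. H3K27me3 peaks at promoters had median widths of 11346, 7386 and 5509 bp, above all libraries of the other marks. H3K27ac peaks had median widths of 3427, 3290 and 3487 bp, H3K9me3 peaks 2952, 2949 and 2753.5 bp, and H3K4me1 peaks 2327, 4957 and 2530.5 bp (exact omnibus permutation p = 0.0151, adjusted p = 0.0189). The centre of the signal maximum lay a median of 264.5, 308.5 and 264 bp from the gene start for H3K27ac, closest of the marks in each library. The distance was 879, 807.5 and 676.5 bp for H3K27me3, 518.5, 1255.75 and 593 bp for H3K4me1, and 1374.5, 1247 and 1421 bp for H3K9me3 (exact omnibus permutation p = 0.00390, adjusted p = 0.00649). The share of promoters with a peak differed as well (exact omnibus permutation p = 0.0279, adjusted p = 0.0279). However, H3K27ac, H3K27me3 and H3K4me1 libraries overlapped, as did those of H3K4me1 and H3K9me3. The adjusted p of this exact test was 0.267 without replicate 1 and 0.333 without replicate 3. Without replicate 1, and likewise without replicate 3, the adjusted p for width and for distance was 0.155 in the same exact test.

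**Figure D3:**
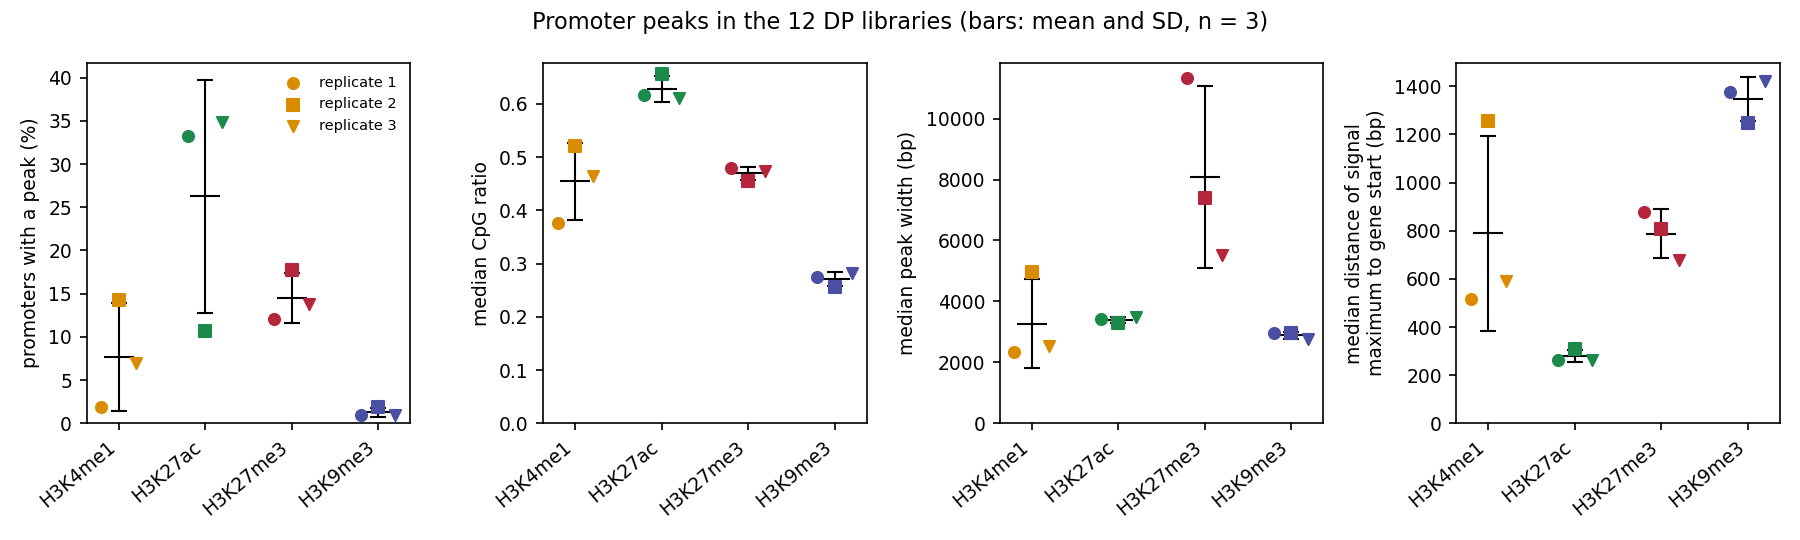
Share of promoters with a peak (%), median CpG ratio, median peak width (bp) and median distance of the signal maximum from the gene start (bp) in the 12 DP libraries; symbols are replicates and bars the mean and SD of 3 libraries. H3K27ac libraries have the highest CpG ratio (0.611 to 0.657) and the shortest distance (264 to 308.5 bp), and H3K9me3 libraries the lowest CpG ratio (0.257 to 0.282).

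The side of the gene start also differed. The maximum lay inside the gene at 67.2 ± 2.77% of promoters with H3K27ac and 68.9 ± 0.979% with H3K27me3 (SD, n = 3), where the median positions were 157 ± 5.77 and 356 ± 26.6 bp into the gene. For H3K9me3 it lay inside the gene at 32.8 ± 1.77% of promoters, and 57.0 ± 1.73% of maxima were over 500 bp upstream. The promoter window reaches 1 kb upstream but only 100 bp into the gene. Peaks placed without regard to the gene start would therefore also have maxima upstream more often than inside. The part of the window in the H3K9me3 shares was not tested. Where the window had to be covered to 50% or more, the promoters with H3K9me3 alone went from 160 to 105.

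**Figure D4:**
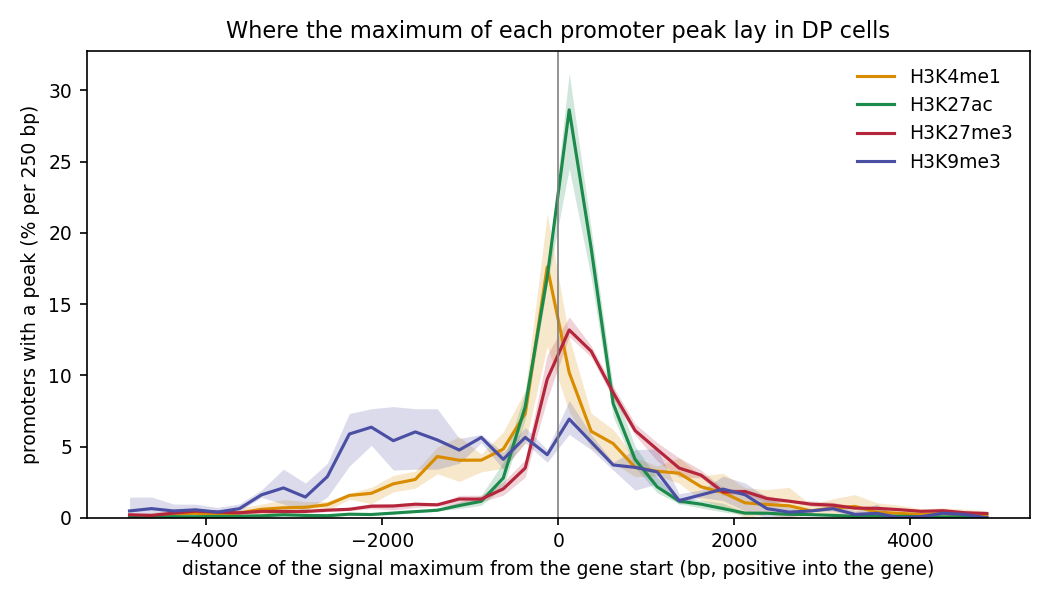
Position of the signal maximum relative to the gene start (horizontal axis, bp, positive into the gene) as the share of promoters with a peak of that mark (vertical axis, % per 250 bp bin); lines are means of 3 DP libraries and shading their range. H3K27ac and H3K27me3 peak just inside the gene, and H3K9me3 maxima lie mostly upstream (57.0% over 500 bp upstream). The promoter window itself reaches further upstream than into the gene, which favours upstream maxima.

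Genes with H3K27ac alone were led by transcription and chromatin regulators and by basement membrane genes. The 5 highest by mean percentile of total signal, among 1973 with a peak in 3 of 3 libraries, were Mnt, Col4a1, Col4a2, Setd1b and Brd2. Mnt, a MAX partner that opposes MYC, had total signals of 183877, 78923 and 206454 in the 3 H3K27ac libraries. Col4a1 and Col4a2, the type IV collagen chains of the endodermal basement membrane, share a promoter and 1 peak, of 145032, 69550 and 186499. Setd1b, an H3K4 methyltransferase, had 150967, 66277 and 157507, and Brd2, a bromodomain reader of acetylated histones, 124110, 69471 and 132332. These genes had no H3K27me3 or H3K9me3 peak in any DP library. Housekeeping families had the mark often, with H3K27ac at 68 of 83 ribosomal protein genes (81.9%), 30 of 44 Eif translation initiation genes (68.2%), 24 of 36 complex I genes (66.7%) and 27 of 48 proteasome genes (56.3%), against 30.3% of all promoters. At the other end were receptor families that most tissues keep silent, with H3K27ac at 0 of 1092 olfactory receptor (Olfr) and 1 of 326 vomeronasal receptor (Vmn) genes. Median CpG ratios were 0.561 to 0.605 in the housekeeping families and 0.101 and 0.111 in the receptor families. H3K27ac was at 60.3% of all promoters with a CpG ratio of 0.543 or more and at 3.87% of those below 0.246.

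The 2847 promoters with H3K27me3 alone were led by Sez6, Atoh8 and a group of 3 neighbouring genes. Sez6, a neuronal membrane protein, had total signals of 719004, 674226 and 343125 in the 3 H3K27me3 libraries. Gm49601, Gp1bb and Sept5 lie side by side on chromosome 16 and shared 1 peak of 945288, 429988 and 302196, so they are 1 measurement. Atoh8, a basic helix-loop-helix factor, had 844890, 691254 and 244081. Several families of developmental regulators had the mark often. H3K27me3 was present at 9 of 9 Pax, 8 of 8 Lhx and 14 of 14 Nkx genes, 17 of 19 Wnt genes (89.5%), 31 of 39 Hox genes (79.5%), 13 of 19 Sox genes (68.4%), 8 of 13 Tbx genes (61.5%) and 26 of 44 Fox genes (59.1%), against 14.6% of all promoters. These families hold transcription factors of body patterning and organ formation and, for Wnt, secreted ligands. Members without H3K27me3 included Tbx3, Foxa2 and Sox7, each with H3K27ac alone, and Sox17, with H3K4me1 and H3K27ac. Of the H3K27me3 promoters 51.4% had no neighbour with the mark in gene order, against 26.0% of the H3K27ac promoters, and the longest runs were 9 promoters (Tnni1 to Kif21b, chromosome 1) and 12 (Etaa1 to Vps54, chromosome 11). The marks were at 14.6 and 30.3% of all promoters, and a rarer mark meets fewer marked neighbours. This difference in frequency was not taken out of the shares.

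Promoters with H3K4me1 alone were led by Pou5f1, which encodes OCT4, the factor used to sort the cells. Its total H3K4me1 signals were 20615, 65991 and 36074, and it had an H3K27ac peak in replicate 1 (51464) but not in replicates 2 and 3. It therefore missed the H3K27ac call by 1 library. Lpar5, a lysophosphatidic acid receptor, had 20216, 63165 and 38152, and Esam, an adhesion molecule, 15502, 51781 and 33185. Other pluripotency genes with H3K4me1 alone were Tfcp2l1, a LIF-responsive factor (6856, 37737 and 6493), and Dppa3, Dppa5a, Utf1 and Gdf3, each listed in replicates 2 and 3 only. The Nodal pathway genes Nodal and Lefty2 had H3K4me1 with H3K27ac in replicate 1 only (20146 and 14383).

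The 670 promoters with H3K4me1 and H3K27ac were led by Src, the tyrosine kinase, with H3K4me1 signals of 28069, 158194 and 45440 and H3K27ac signals of 180658, 94213 and 231359. Samm50 (mitochondrial outer membrane), Midn, Plaur (the urokinase receptor) and Crip1 came next. Endoderm genes in this combination were Sox17, Pdgfra, Lama1, Lamb1 and Apoe. Lifr, the LIF receptor subunit, had both marks in 3 of 3 libraries, with H3K4me1 of 15638, 66690 and 24743 and H3K27ac of 39670, 27516 and 38712. H3K27ac peaks in this combination were wide and high for their libraries, with a median width of 4398 ± 471 bp against 3390 ± 142 bp for H3K27ac alone and a median percentile of total signal of 74.5 ± 6.23 against 57.5 ± 7.07 (SD, n = 3). Over all 723 promoters with both marks, whatever else they carried, the maxima lay a median of 556.5, 1080.5 and 658.5 bp apart in same-numbered libraries. The distance was measured at 209, 316 and 677 of them. Between H3K27ac replicates it was 177 ± 23.4 bp over all 6641 H3K27ac promoters.

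At the 212 promoters with H3K27ac and H3K27me3 the maxima of the marks were mostly apart. In same-numbered libraries they lay a median of 2443.5, 2456 and 1116.25 bp from each other, and 69.5, 64.1 and 52.9% of them were over 1 kb apart. Both peaks were listed, and the distance measured, at 151, 39 and 174 of the 212. Replicates of a single mark differed by 177 ± 23.4 bp over all 6641 H3K27ac promoters and 306 ± 16.3 bp over all 3189 H3K27me3 promoters. The replicate distances were not computed for the 212 alone. Signals were low to moderate for their libraries, with median percentiles of 44.6 ± 8.39 for H3K27ac and 60.3 ± 7.77 for H3K27me3 at the 161 promoters without H3K4me1, against 57.5 ± 7.07 and 69.2 ± 7.08 at promoters with either mark alone. Few were complete, as 7 of the 161 had both marks in 3 of 3 libraries. Als2cl and Tmie, which share a promoter, had H3K27ac of 20053, 19901 and 46499 and H3K27me3 of 199341, 165449 and 92766. Zfp703, a transcriptional cofactor, had 30194, 13770 and 47779 against 188211, 125541 and 54339. Developmental genes here included Ihh, a hedgehog ligand of the endoderm, the neural factors Sox21 and Irx3, and Wnt11. With H3K4me1 as well, the 51 promoters included Fgfr3, an FGF receptor, Cbx8, a Polycomb repressive complex 1 subunit, and Kcnk13, a potassium channel and the single gene with each of the 3 marks in 3 of 3 libraries.

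H3K4me1 with H3K27me3, a combination known from poised elements, marked 115 promoters with high H3K27me3 for their libraries (median percentile of 78.9 ± 5.67) and lower H3K4me1 (40.6 ± 3.97). Tlx2, a homeobox factor, had H3K4me1 of 11987, 29800 and 20436 and H3K27me3 of 339942, 265306 and 178198. Tril, Comp, Snai3 and Tppp3 followed by rank. The trophoblast factors Gata2 and Ovol1, the mesoderm factor Evx1, and Hoxa3, Hoxa9, Nkx6-2 and Fgf3 also had this combination. Without H3K4me1 replicate 2 the count was 22.

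Of the 21 promoters with H3K27ac and H3K9me3, 4 belonged to the list of 25 imprinted genes. H3K9me3 was present at 10 of the 25 against 0.913% of all promoters, with shares of 28, 44 and 40% in the 3 libraries. Peg3 and Usp29, paternally expressed genes that share a divergent promoter on chromosome 7 at starts 6730431 and 6730578, had 1 H3K27ac peak of 41905, 24321 and 52279 and 1 H3K9me3 peak of 12430, 34936 and 26306. Zrsr1, an imprinted retrogene, had H3K27ac of 18166, 16341 and 23169 and H3K9me3 of 10987, 15088 and 11816. Mcts2, another imprinted retrogene, had H3K27ac of 16080 and 15418 in replicates 1 and 3 and H3K9me3 of 15766, 20857 and 17393. Peg10 and Sgce, also a divergent pair, had H3K4me1, H3K27me3 and H3K9me3 (8016 and 8837 in replicates 2 and 3). Cdkn1c, a growth inhibitor expressed from the maternal allele, had H3K27me3 of 602811, 440066 and 202853 with H3K9me3 of 7121, 20248 and 12339. Igf2, Nnat and Nap1l5 had H3K9me3 alone. Peak lists do not separate parental alleles.

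The remaining promoters with H3K27ac and H3K9me3 were not imprinted genes of the list. Il3ra, a cytokine receptor subunit, ranked first of the 21, with H3K27ac of 49833, 29924 and 69711 and H3K9me3 of 42412, 70212 and 70183. Csf2ra, a related receptor subunit on chromosome 19, had the same pair of marks (33497, 18721 and 42004 against 23956, 35431 and no peak). Zfp982, in a family of near-identical zinc finger genes where reads may be shared, and Senp6, a SUMO protease, followed by rank. Csf2ra, like Csrp2, Cd244a and Tmem185b in the same combination, was named after its values were seen. The maxima of H3K27ac and H3K9me3 lay a median of 2090 ± 234 bp apart over the 3 replicate numbers. This was measured at 18, 8 and 20 of the 23 promoters with both marks, with or without H3K4me1. Genes with H3K27me3 and H3K9me3 were Cdkn1c, Atp8b1, Defb36, Lgi2, Mapk8ip1, Nbl1, Nrtn, Plppr3, Ptprs, Ttyh3, Tuba3a and Znrf4. The third gene with H3K4me1, H3K27me3 and H3K9me3 was Cyp1b1, those with H3K4me1, H3K27ac and H3K9me3 were Itm2b and Sars, and those with H3K4me1 and H3K9me3 were C130032M10Rik and Gstp3.

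H3K9me3 alone was led by Gm10801, on chromosome 2, with total signals of 181436, 191245 and 167595, followed by Gm6217, Adam4, Hmga1b and Gm21028. No genome regions were excluded from the lists, and signal at Gm10801 was not looked up in the IgG samples, so background signal there was not tested. Adam4 is a testis protease gene with 61482, 65810 and 57602. Hmga1b is a near copy of Hmga1, so reads may be shared. Germline genes with H3K9me3 alone were Dazl, an RNA-binding protein of germ cells (11813, 16390 and 8241), Sycp3, Tdrd9 and Rpl10l, 4 of 25 listed (16% against 0.913% of all promoters), whereas Ddx4, Sycp2, Tdrd1, Dmrt1 and Tex19.1 had H3K27me3 (20% against 14.6%). None of the 25 carried H3K27ac or H3K4me1, against 30.3 and 5.42% of all promoters.

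**Figure D5:**
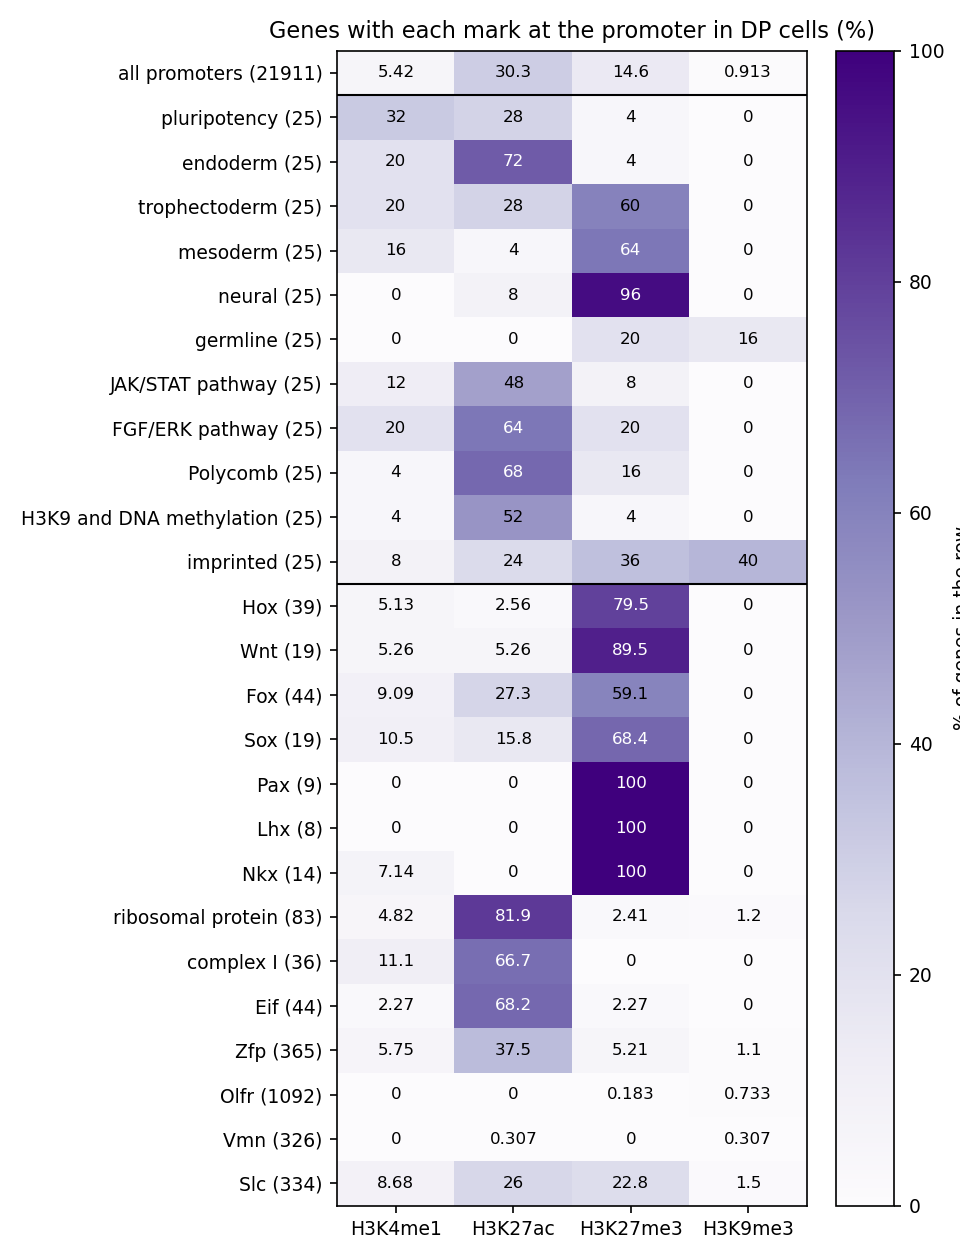
Share of genes (%, number in each cell) with each mark at the promoter in DP cells for all promoters, the 11 lists of 25 genes and 14 gene families, with the number of genes in brackets. Neural genes (96% with H3K27me3), endoderm genes (72% with H3K27ac), pluripotency genes (32% with H3K4me1) and imprinted genes (40% with H3K9me3) stand furthest from the row of all promoters for the respective mark among the lists.

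Lineage lists fell into different combinations. Endoderm genes had H3K27ac at 18 of 25 (72%, against 30.3% of all promoters), H3K4me1 at 5 (20% against 5.42%) and H3K27me3 at 1 (4% against 14.6%). By library, H3K27ac was at 84, 32 and 72% of them against 33.2, 10.7 and 34.9% of all promoters. Gata6, the factor that starts primitive endoderm formation, had H3K27ac of 62353, 24692 and 64357, and Sox7, Foxa2 and Gata4 also had H3K27ac alone. Pdgfra, the surface receptor used for sorting, had H3K27ac of 32293 and 55343 in replicates 1 and 3 and H3K4me1 of 101753 and 6919 in replicates 2 and 3. Pluripotency genes had H3K4me1 at 8 of 25 (32% against 5.42%), H3K27ac at 7 (28%, near the 30.3% of all promoters) and H3K27me3 at 1, Prdm14 (4% against 14.6%). Klf4, a factor of naive pluripotency, had H3K27ac of 75656, 33863 and 83118, and Klf2, Tbx3, Lin28a and Tet2 had H3K27ac alone. Nanog, Fgf4 and Pecam1 had no peak of any mark in the 12 DP libraries. Sox2, Esrrb, Zfp42 and Hhex had single-library peaks only. These were of H3K27me3 at Esrrb, of H3K4me1 and H3K27me3 at Sox2, and of H3K27ac at Zfp42 and Hhex. Of the 5 markers set for DP cells, Pou5f1, Pdgfra and Gata6 thus carried an active or enhancer-type mark. Esrrb, with H3K27me3 in 1 library, and Hhex, with H3K27ac in 1 library, did not reach the call of any mark.

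Neural, mesoderm and trophectoderm genes had H3K27me3 at 60% or more of each list, against 14.6% of all promoters. Neural genes had it at 24 of 25 (96, 96 and 88% by library, against 12.1, 17.7 and 13.8% of all promoters), with Dbx1 the exception and Sox21 and Irx3 carrying H3K27ac as well. Mesoderm genes had it at 16 of 25 (64%), among them T, Mixl1, Mesp1 and Gsc. Trophectoderm genes had H3K27me3 at 15 of 25 (52, 64 and 52% by library) and H3K27ac at 7 (28%, near the 30.3% of all promoters). The transcription factors Cdx2 (178734, 132245 and 95350), Gata3 (419091, 239477 and 169672), Tfap2c (210347, 115738 and 76447) and Eomes (38410 and 31168 in replicates 2 and 3) had H3K27me3 alone. The keratin Krt18 had H3K27ac alone, and the keratin Krt8 and Tead4, a Hippo pathway factor, had H3K4me1 with H3K27ac, with Tead4 at 75976, 38006 and 71779 for H3K27ac. Median CpG ratios of the neural and mesoderm lists were 0.604 and 0.603, above the 0.459 of all promoters with H3K27me3 alone.

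The signalling and chromatin lists had H3K27ac at 48 to 68% of their genes, against 30.3% of all promoters. Their median CpG ratios were 0.519 to 0.659, and H3K27ac was at 60.3% of all promoters with a CpG ratio of 0.543 or more. CpG content was not taken out of these shares. In the JAK/STAT pathway, which carries the LIF signal, H3K27ac was present at 12 of 25 genes (48%), including the receptor Il6st, the kinase Jak2, the transducer Stat3 and the feedback inhibitor Socs3, while Stat5a and Stat5b had H3K27me3 alone and 11 genes had no mark. In the FGF/ERK pathway H3K27ac was present at 16 of 25 genes (64%) and H3K27me3 at 5 (20% against 14.6%). The receptors differed, with Fgfr4 under H3K4me1 and H3K27ac, Fgfr1 under H3K27me3 alone at its outermost start (116730 and 140477 in replicates 1 and 2) and Fgfr3 under H3K4me1, H3K27ac and H3K27me3. The call of Fgfr2, H3K27ac alone, rests on an outermost start that makes the gene model 2960.9 kb long, and with any transcript start it became H3K4me1 with H3K27ac. The ligands Fgf5 and Fgf8 had H3K27me3. Polycomb genes had H3K27ac at 17 of 25 (68%), among them Ezh2, Eed, Suz12 and Jarid2, while Cbx2, Cbx8 and Phf19 had H3K27me3. Genes of H3K9 and DNA methylation had H3K27ac at 13 of 25 (52%), including Dnmt3b and Uhrf1, H3K27me3 at Dnmt3a and no mark at 11.

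The choice of gene start mattered for single genes. When a peak at any annotated transcript start counted, Dab2 and Sparc, endoderm genes with no mark at the outermost start, had H3K27ac (Sparc with H3K4me1), and Mest, Snrpn and Inpp5f had H3K9me3. Imprinted genes with H3K9me3 then numbered 15 of 25 against 2.07% of all genes. Esrrb, Nr5a2 and Fgf4 had H3K27me3 at another start, and Nanog and Sox2 still had no mark. Pluripotency genes then had H3K27me3 at 4 of 25 against 16.3% of all genes.

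Promoter marks were uneven between chromosomes. Chromosome 6 had the highest share of promoters with H3K4me1 of the autosomes in 3 of 3 DP libraries, at 4.68, 26.1 and 15.6% against at most 2.70, 19.4 and 8.68% on any other, and likewise for H3K27me3, at 18.6, 25.2 and 21.0% against at most 16.1, 23.7 and 18.04%. It led for both marks in 3 of 3 Oct4+ libraries as well, but in Pdgfra+ libraries in 1 of 3 for H3K4me1 and 2 of 3 for H3K27me3. For H3K9me3 it led in 2 of 3 DP libraries. It did not lead for H3K27ac, at 28.1, 9.26 and 29.9% with other autosomes up to 41.4, 14.3 and 43.2%. Without chromosome 6, H3K4me1 was present at 4.94% of promoters and H3K4me1 with H3K27me3 at 83 of them. Tlx2, Tril, Lpar5, Dppa3, Gdf3, Tead4, Gata2, Evx1, Hoxa3, Hoxa9, Peg10, Sgce, Atoh8 and Tuba3a are on this chromosome. No source used here gives its copy number in these cells, and its part in these calls was not tested. On the X chromosome 86 of 948 promoters (9.07%) had any mark, against 38.8 to 58.9% on the autosomes, and among those with a CpG ratio of 0.543 or more H3K27ac was present at 22.6% against 54.3 to 67.4%. No X-linked promoter had H3K9me3, and X was below every autosome in 12 of 12 DP libraries.

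The classes defined in DP cells were then looked up in the libraries of the other populations. Over all promoters, H3K27ac was at 35.3, 44.3 and 17.0% in Oct4+ libraries and at 15.9, 22.7 and 18.5% in Pdgfra+ libraries. H3K27me3 was at 4.58, 8.74 and 15.8% and at 2.09, 4.92 and 13.3% of all promoters in the same order. The class shares were not adjusted for these differences between libraries. Of the 6429 promoters with H3K27ac and no H3K27me3 in DP cells, 83.1, 90.7 and 50.6% had H3K27ac in Oct4+ libraries (74.8 ± 21.3%, SD, n = 3) and 51.1, 71.6 and 60.2% in Pdgfra+ libraries (61.0 ± 10.3%). The direction turned when libraries were held to 1143 peaks (20.2 percentage points lower in Oct4+). The 2977 promoters with H3K27me3 and no H3K27ac had H3K27me3 in 54.1 ± 26.0% and 42.2 ± 32.2%, with single libraries from 28.8 to 80.8% and from 14.7 to 77.6%. They had H3K27ac in 13.0, 30.7 and 1.48% in Oct4+ libraries and in 0.739, 1.28 and 0.202% in Pdgfra+ libraries. The 212 promoters with both marks had H3K27me3 in 25, 46.2 and 70.8% in Oct4+ libraries and in 2.36, 6.13 and 33.0% in Pdgfra+ libraries, and H3K27ac in 48.9 ± 30.2% and 43.4 ± 11.4%. The 12293 promoters with neither mark had H3K27ac in 15.3, 22.9 and 3.26% in Oct4+ libraries and in 0.724, 1.71 and 0.781% in Pdgfra+ libraries. Their H3K27me3 shares were 2.37 ± 2.59% and 1.52 ± 2.27%. None of the 8 comparisons passed (exact two-sided permutation tests, smallest possible p = 0.10, adjusted p from 0.267 to 0.90), and none could with 3 libraries against 3. At single genes, Gata4, Sox17, Foxa2 and Pdgfra had H3K27me3 in at least 1 Oct4+ library and in none from DP cells, and Nanog and Sox2 had H3K27ac in 3 of 3 Oct4+ libraries and in none from DP cells. These genes are examples, and neither their lists nor all promoters were counted for these patterns. Endoderm genes varied, as Apoe had H3K27ac in 2 Oct4+ libraries and H3K27me3 in 0. Col4a1 had H3K27ac in 2 and H3K27me3 in 3.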

How the data were processed

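CUT&Tag uses an antibody to direct a transposase to a histone mark. The authors sequenced paired-end fragments, computed coverage with BEDtools and called peaks per library against IgG with SEACR in stringent mode. The deposited lists give each peak's total and maximum signal (fragment coverage, whole numbers, not scaled to depth). The submitters' processing notes name mm10, bcl2fastq 2.19.1, Bowtie2, SAMtools 1.12, deepTools, SEACR and bedtools 2.26.0. No source used here gives the SEACR normalization setting or the read totals. The 3 IgG samples and H3K4me3 were not analysed here.

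Gene starts came from GENCODE vM21 and sequence from GRCm38. Of 21938 gene models, 21911 symbols were kept, with the longest model for a repeated symbol and the outermost annotated start for each gene. Overlaps of 1 bp or more, found in Python (3.11.15; pandas 2.3.3, NumPy 2.4.6, SciPy 1.17.1), matched those of bedtools 2.31.1 in all 12 DP libraries, and the script was tested on simulated data. No pair of lists was identical. Where several peaks overlapped a promoter, the one with the highest total signal was used. Signal percentiles are ranks among the peaks of a library.

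Marks were compared by exact permutation of the F statistic over libraries, for 5 measures, and Oct4+ with Pdgfra+ libraries by exact two-sided permutation for 8 values. P-values were adjusted after Benjamini and Hochberg within each family at a threshold of 0.05. Counts of combinations and lists were not tested and stand beside the share of all 21911 promoters. For combinations of 20 or more promoters, the 5 genes with the highest mean percentile among those with a peak in 3 of 3 libraries of each mark were named, and members of the 11 lists of 25 genes and of 22 families could be named too. The combinations, lists and families were chosen with earlier results of these data known.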

Additional observations from a re-analysis of the deposited data

How the results depend on the processing

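Counts of combinations changed with the number of libraries and peaks, whereas the ratio of H3K27ac with H3K27me3 to the product of shares stayed below 1, from 0.0416 (3 of 3 libraries) to 0.391 (1 or more of 3). With a peak in 1 or more of 3 libraries, 2348 promoters had H3K4me1 with H3K27ac, 327 H3K27ac with H3K27me3, 365 H3K9me3 alone, 428 H3K4me1 with H3K27me3, 269 these 3 marks together and 51 H3K27ac with H3K9me3. With 3 of 3 libraries the counts were 2227 for H3K27ac alone, 80 for H3K4me1 with H3K27ac, 168 for H3K4me1 alone, 9 for H3K27ac with H3K27me3, 92 for H3K9me3 alone, 17 for H3K4me1 with H3K27me3, 1 for the 3 marks and 6 for H3K27ac with H3K9me3. Keeping the 50% of each list with the most signal, they were, for the same combinations without H3K4me1 alone, 3341, 254, 39, 103, 34, 7 and 9. With 3079 peaks in every DP library they were 2144, 141, 162 (H3K4me1 alone), 22, 42, 22, 1 and 8, and the ratio of H3K27ac with H3K9me3 to the product of shares became 1.51. Where a peak had to cover 50% of the window, 105 promoters had H3K9me3 alone, 72 H3K4me1 with H3K27me3 and 13 H3K27ac with H3K9me3. With the window from 2 kb upstream to 500 bp downstream, 248 had H3K9me3 alone and 42 H3K27ac with H3K9me3. Counting any transcript start gave 1230 for H3K4me1 with H3K27ac, 242 for H3K27ac with H3K27me3, 262 for H3K9me3 alone, 202 for H3K4me1 with H3K27me3, 130 for the 3 marks and 92 for H3K27ac with H3K9me3.

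Leaving out each replicate number in turn, with a peak in both other libraries, gave 2015 to 6332 promoters with H3K27ac alone, 98 to 288 with H3K4me1 and H3K27ac, 103 to 659 with H3K4me1 alone, 17 to 107 with H3K27ac and H3K27me3, 93 to 133 with H3K9me3 alone, 14 to 126 with H3K4me1 and H3K27me3, 2 to 7 with the 3 marks and 6 to 15 with H3K27ac and H3K9me3. Without H3K4me1 replicate 2 alone, the counts from H3K4me1 with H3K27ac onward were 152, 94, 198, 162, 22, 14 and 23, and without H3K27ac replicate 2 alone they were 665, 350, 159, 160, 115, 51 and 21. The largest difference between mark means ranged from 20.5 to 33.1 percentage points for the share of promoters, from 0.335 to 0.371 for the CpG ratio, from 3596.25 to 6415.5 bp for width, from 1024.25 to 1133.5 bp for distance and from 2.27 to 7.38 percentage points for the share in the H3K4me1 set. Without replicate 1 or 3 none of these 5 measures passed in the exact permutation test, and without replicate 2 the first 4 passed. The smallest p that 2 libraries allow is 0.00952 for 4 marks and 0.0667 for 3 marks.

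Same-numbered DP libraries of different marks deviated with correlations from -0.159 to 0.0571. For Oct4+ and Pdgfra+ libraries the range was -0.0650 to 0.0677 for H3K27ac and 0.0548 to 0.372 for H3K27me3, where 3 of 3 pairs correlated best with their own number. Since not every pair was over 0.1, the numbers were not taken as pairing libraries. With the replicate block the difference in share was 25.004 percentage points (adjusted exact permutation p = 0.0816) and that in width 5195.5 bp (adjusted exact permutation p = 0.0629), and the other 3 measures still passed. None of the 8 comparisons of Oct4+ with Pdgfra+ passed with the block (smallest adjusted exact permutation p = 0.333).

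In the other populations, the Oct4+ minus Pdgfra+ difference in H3K27ac turned to -4.41 (3 of 3 libraries) and -20.2 percentage points (1143 peaks per library) for H3K27ac promoters, with -9.66 to 11.0 when a replicate was left out. For promoters with both marks it turned to -53.3, -30.4 and, where a peak had to cover 50% of the window, -1.004, with -37.5 (without replicate 1), -14 (without replicate 3) and 0 (without replicate 2). The cause was not tested. Depth could not be judged from the lists, and rare combinations rest on few promoters. The fits without H3K4me1 or H3K27ac replicate 2 were added after seeing the data.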
